A study of Rattus norvegicus with 6 samples.

Results

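The genes described here handle lipoprotein triglyceride and fatty acids in the liver. They comprise the lipases Lpl and Lipc, the lipase inhibitor Angptl4, the receptors Lrp1 and Vldlr, the fatty acid translocase Cd36, the fatty acid binding protein Fabp1, and Mttp and Sort1, which act on lipoproteins inside the secretory pathway. Levels are FPKM values (fragments per kilobase of transcript, relative to mapped fragments), normalized across the 6 libraries. The 9 symbols were looked up by exact name among 33022 loci, taking the locus with the highest mean where a symbol was repeated. Exact matches were found for 8 of the 9. Cd36 was present only within a locus that joins its symbol with LOC685953 and RGD1565355, and it is described apart from the others. Averaged over the 6 libraries, 6 of the 8 reached 1 FPKM (Lpl, Lipc, Angptl4, Lrp1, Fabp1 and Mttp), whereas Vldlr and Sort1 stayed below it.

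The livers came from male obesity-prone Sprague Dawley rats with a starting weight of 160 to 190 g. They ate either the control diet (CD, TD 08485) or the Western diet (WD, TD 88137) freely for 2 wk, and all were fasted overnight and briefly refed before sampling. Total RNA was measured beside 2 sucrose gradient fractions, the light fraction, with mRNAs that carry 3 or fewer ribosomes, and the heavy fraction, with mRNAs that carry 4 or more. RNA of 3 rats was pooled for each diet and kind of RNA, which gave 6 libraries and n = 1 in each group, so no difference below can be set against a spread between rats and none carries a p-value.

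Liver lipid metabolism depends on a small set of proteins that move fatty acids into and out of the hepatocyte. Triglyceride in circulating lipoproteins is hydrolysed at the vessel wall by lipoprotein lipase and hepatic lipase, angiopoietin-like proteins restrain these enzymes, and the remnant particles enter the hepatocyte through receptors of the LDL receptor family. Fatty acids are bound in the cytosol by Fabp1, while Mttp loads triglyceride onto apolipoprotein B for secretion in very low density lipoprotein. Angptl4, Cd36 and Fabp1 are known target genes of PPAR alpha, the nuclear receptor that senses fatty acids in the liver.

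The promoter table of RefSeq (assembly GRCr8, 250 bases before each gene's start) held 7 of the 9 genes, all but Lpl and Mttp. The windows below are shown because nuclear receptors that respond to fatty acids and other lipids read the half-site AGGTCA, and because TATAAA is the core of the TATA box. Capitals mark AGGTCA or its reverse complement TGACCT, or TATAAA on the gene's strand, and each line reads 5′ to 3′ on the gene's strand.
Lipc (chr8:80516506-80516535, minus strand): atacagAGGTCAcctagcTGACCTttgatc
Fabp1 distal (chr4:104749257-104749286, plus strand): aatcacTGACCTatggcctatatttgagga
Fabp1 proximal (chr4:104749294-104749323, plus strand): gcccctTATAAAatagccaacagtgggtgg
Angptl4 (chr7:15258697-15258726, minus strand): cggcttTATAAAatggggccttaggtacaa
Sort1 (chr2:198612248-198612277, plus strand): ggggaaTGACCTcagccgtccctgccacgt
The AGGTCA half-site, searched on both strands, was present in 3 of the 7 promoters (Fabp1, Lipc and Sort1) and in 14.1% of the 33469 promoters of the table. In Lipc both orientations stood within the same window, beginning 244 and 232 bases before the start. TATAAA was found in 2 of the 7 (Angptl4 and Fabp1), beginning 39 and 40 bases before the start, and in 8.06% of all promoters. No binding was measured, so these matches describe letters only.

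Hepatocyte markers were high in every library (Alb 47108 FPKM in CD and 43677 FPKM in WD total RNA). The number of fragments behind an FPKM value was inferred from the values themselves, and for Lpl, Angptl4, Mttp, Sort1 and Vldlr it could be had in each library. The WD light library stood apart from the others. It held 471392 inferred fragments in the loci compared, against 195260 to 282984 elsewhere, and Hbb, the beta chain of hemoglobin, was at 242 FPKM in it, against 0 to 13.9 FPKM in the other 5. Other blood cell markers did not follow it, since in the light fraction Alas2 was at 19.7 FPKM in CD and 7.18 FPKM in WD and Ptprc at 2.87 and 2.11 FPKM. Its FPKM sum over loci with a symbol was also the highest (867734, against 617369 to 700724). When the libraries were brought to 1 common sum, the median log2 difference over all loci went from 0.02 to 0.12 in total RNA, from 0.02 to -0.29 in the light fraction, from -0.02 to -0.04 in the heavy fraction and from -0.02 to 0.28 in ribosome density.

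The 8 genes spanned a wide range of abundance in total RNA. Fabp1 was by far the most abundant, at rank 21 of 10201 loci in CD and 25 in WD. Lipc and Lrp1 came next, at ranks 239 and 453 in CD, followed by Mttp at 1206 and Angptl4 at 1268. Lpl was scarce (rank 8255 in CD and 6971 in WD), and Sort1 and Vldlr lay below it. This order was the same in both total RNA libraries. The bounds that Cufflinks gives for each value overlapped between all neighbours in this order except Angptl4 and Lpl.

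Lpl encodes lipoprotein lipase, the enzyme that releases fatty acids from circulating triglyceride, and is known to be low in adult liver (Rnor_6.0, chr16:22537055-22561496). In total RNA it measured 2.02 FPKM in CD and 3.42 FPKM in WD, from 8 and 13 fragments. In the light fraction it measured 3.69 FPKM in CD and 5.59 FPKM in WD (10 and 33 fragments), and in the heavy fraction 0.792 and 2.32 FPKM (2 and 6 fragments). WD was thus the higher library in all 3 kinds of RNA. On the log2(FPKM + 0.1) scale used for every difference below, WD over CD was 0.74 in total RNA, 0.59 in the light fraction and 1.44 in the heavy fraction. The exact 95% counting interval of the ratio, which covers counting error between these libraries only, ran from 0.653 to 4.73 in total RNA, from 0.731 to 3.45 in the light fraction and from 0.524 to 29.7 in the heavy fraction. Each includes 1, so the WD and CD libraries did not differ in Lpl beyond counting error. With the libraries rescaled to 1 common sum, the light fraction difference was 0.24 instead of 0.59. A diet difference could not be tested with 1 library per group.

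Lipc encodes hepatic lipase, which the hepatocyte secretes and which acts on remnants and HDL (chr8:77272569-77398248). In total RNA its level was 287 FPKM in CD and 217 FPKM in WD, beside 134 and 115 FPKM in the light fraction, and 327 and 246 FPKM in the heavy fraction. CD was the higher library in each pair. The log2 differences were -0.40, -0.21 and -0.41, all short of a WD over CD ratio of 0.75. Limits of 1.5 and 0.75 on WD over CD are used throughout, although the study's methods state them for CD over WD and for ribosome density only. After rescaling, the light and heavy differences became -0.56 and -0.43 and passed it. No fragment numbers could be inferred for Lipc, and the Cufflinks bounds of WD and CD overlapped in each kind of RNA, as they did for all 8 genes.

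Angptl4 encodes a secreted inhibitor of lipoprotein lipase that fasting is known to induce (chr7:18627807-18634079). In total RNA it was at 39.4 FPKM in CD and 36.3 FPKM in WD, from 76 and 67 fragments. The light fraction held 20.5 and 30.0 FPKM (27 and 86 fragments), and the heavy fraction 33.4 and 47.7 FPKM (41 and 60 fragments). The diets were therefore close in total RNA and WD was higher in both gradient fractions, with log2 differences of -0.12, 0.55 and 0.51. Counting intervals of the ratio were 0.654 to 1.30 in total RNA, 0.941 to 2.35 in the light fraction and 0.945 to 2.18 in the heavy fraction, each including 1. Angptl4 stayed within the limits of 1.5 and 0.75 in all 3. After rescaling, its light fraction difference was 0.20 instead of 0.55 and its heavy fraction difference was 0.49.

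**Figure D1:**
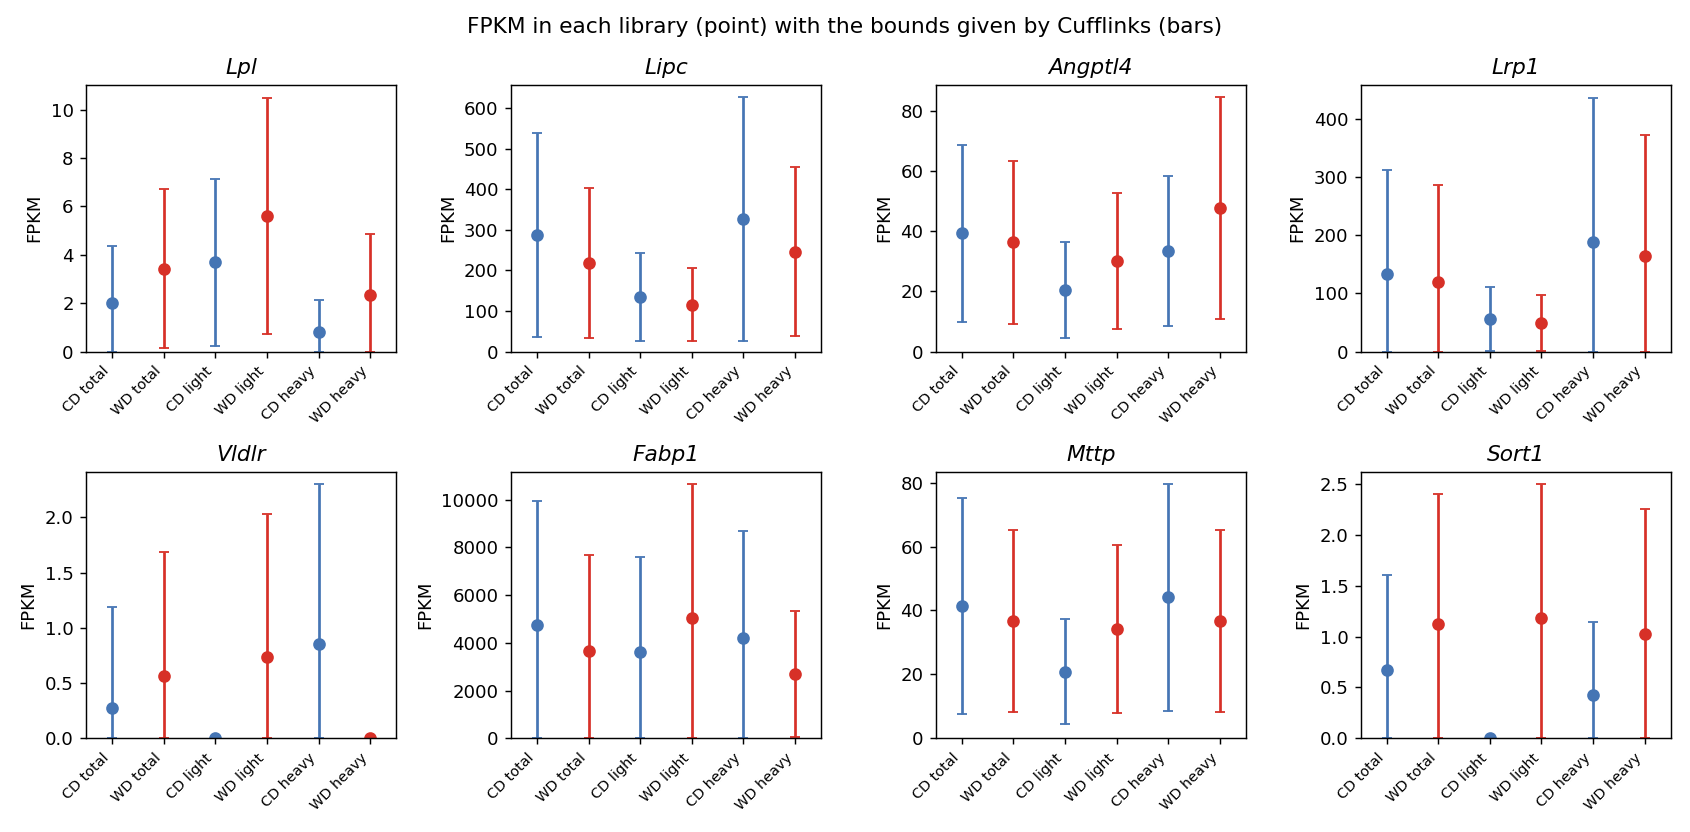
FPKM (vertical axis, linear, own scale for each gene) of the 8 genes in the 6 libraries, with the CD in blue and the WD in red, and bars giving the lower and upper bound of Cufflinks for each library. The bars of WD and CD overlap for 8 of 8 genes in each kind of RNA, and Fabp1 (2682 to 5029 FPKM) lies far above Sort1 and Vldlr.

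Lrp1 encodes a large endocytic receptor that clears chylomicron remnants in hepatocytes (chr7:70846343-70926903). In total RNA it was at 133 FPKM in CD and 120 FPKM in WD, at 55.5 and 49.1 FPKM in the light fraction, and at 189 and 164 FPKM in the heavy fraction. Each WD value was slightly below its CD value, with log2 differences of -0.15, -0.18 and -0.20. Rescaling carried the light fraction difference to -0.53.

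Vldlr encodes the VLDL receptor, which is scarce in liver and abundant in muscle, heart and fat (chr1:245237735-245269205). Only 9 fragments were inferred for it over all 6 libraries, namely 1 (CD) and 2 (WD) in total RNA, 0 and 4 in the light fraction, and 2 and 0 in the heavy fraction. The FPKM values were 0.272 and 0.568 in total RNA, 0 and 0.732 in the light fraction, and 0.854 and 0 in the heavy fraction. A fragment number of 0 allows up to 3 fragments. The ratio in total RNA had an interval of 0.109 to 123, so no direction can be read for Vldlr.

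Fabp1 encodes the liver fatty acid binding protein, the main carrier of fatty acids in hepatocyte cytosol (chr4:99063180-99066954). It was at 4732 FPKM in CD and 3646 FPKM in WD total RNA. The light fraction was ordered the other way (3605 FPKM in CD and 5029 FPKM in WD), and the heavy fraction held 4195 and 2682 FPKM. The log2 differences were -0.38, 0.48 and -0.65. WD was thus lower in total and heavy RNA and higher in the light library that stands apart, where the difference was 0.13 after rescaling.

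Mttp encodes the microsomal triglyceride transfer protein, which is required for the assembly of VLDL (chr2:243366180-243407608). Total RNA held 41.5 FPKM in CD and 36.8 FPKM in WD, from 180 and 153 fragments. The light fraction held 20.9 and 34.2 FPKM (62 and 221 fragments), and the heavy fraction 44.1 and 36.7 FPKM (122 and 104 fragments). The light fraction was the only kind of RNA in which WD was higher. The log2 differences were -0.17 in total RNA, 0.71 in the light fraction and -0.26 in the heavy fraction, and the counting intervals of the ratio were 0.712 to 1.11, 1.23 to 2.21 and 0.634 to 1.09. Only the light interval excludes 1, and after rescaling it ran from 0.965 to 1.73 and no longer did.

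Sort1 encodes sortilin, a sorting receptor that binds apolipoprotein B in the Golgi (chr2:211078333-211156312). In total RNA it had 5 fragments in CD and 8 in WD (0.674 and 1.13 FPKM), 0 and 13 in the light fraction (0 and 1.18 FPKM), and 2 and 5 in the heavy fraction (0.423 and 1.03 FPKM). WD was higher in each pair. The count ratio was 1.67 (95% interval, 0.483 to 6.50) in total RNA and 2.44 (0.400 to 25.6) in the heavy fraction. In the light fraction, where the CD library is at 0, the exact interval of the ratio began at 1.40 (1.10 after rescaling) and had no upper limit. Set against a floor of 3 fragments in the CD library (0.591 FPKM), the WD level gave a ratio of 1.99.

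The merged locus with Cd36, the translocase that takes up long-chain fatty acids, spans chr4:14001760-14249749. It was listed at 0.718 FPKM in CD total RNA, where the Cufflinks bounds run from 0 to 7.28 FPKM, and at 15.9 FPKM in WD total RNA (0 to 34.9 FPKM). The other libraries gave 5.57 and 9.29 FPKM in the light fraction and 23.9 and 21.3 FPKM in the heavy fraction. The CD total RNA value was lower than both CD gradient fractions, whereas the WD total RNA value lay between its fractions. The log2 difference of 4.29 in total RNA was not accompanied by one of like size in the light (0.73) or heavy (-0.17) fraction. The values of the merged locus cannot be assigned to Cd36 alone, and no fragment numbers could be inferred for it.

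Of the 6 genes with a mean of at least 1 FPKM, Lpl alone passed the ratio of 1.5 in total RNA and none passed 0.75, while over all loci compared 17.7% were past the upper and 22.7% past the lower limit. The median of the 6 log2 differences was -0.16, against 0.02 over all loci, with 5 of the 6 below 0. In the light fraction Mttp passed 1.5, Lpl just passed it and none passed 0.75 (25.9% and 26.8% of all loci), with a median of 0.51 against 0.02. That split depended on the scaling, since after rescaling 0 of the 6 were past 1.5 and 2 (Lipc and Lrp1) were past 0.75. The median over all loci was then -0.29, and shares of all loci were not computed after rescaling. In the heavy fraction Lpl passed 1.5 and Fabp1 passed 0.75 (21.7% and 25.8% of all loci), with a median of -0.23 against -0.02. The counts of 1, 2 and 2 of 6 genes past either limit stand against 40.3%, 52.7% and 47.5% of all loci, so none was above its background. With the limits placed on CD over WD instead, 1, 4 and 3 of the 6 were past either limit, against 40.9%, 52.7% and 47.4% of all loci. The genes gained were Angptl4 and Fabp1, higher in WD, in the light fraction and Angptl4, higher in WD, in the heavy fraction.

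**Figure D2:**
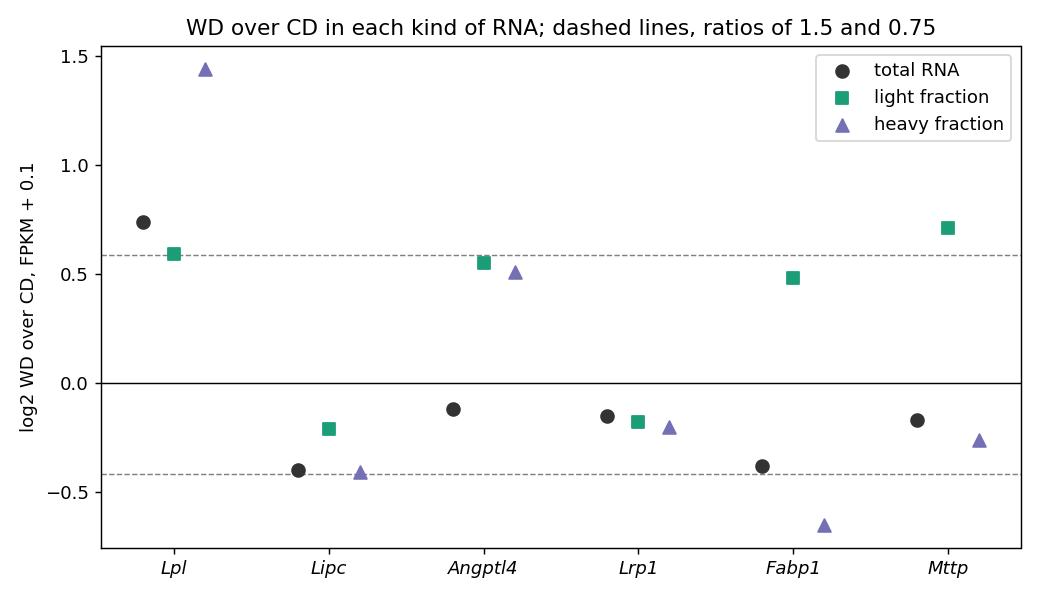
The log2 difference of WD over CD (vertical axis, log2 of FPKM + 0.1) for the 6 genes with a mean of at least 1 FPKM, with total RNA as circles, the light fraction as squares, the heavy fraction as triangles and dashed lines at ratios of 1.5 and 0.75. The symbols of Lipc and Lrp1 lie close together below 0, while those of Mttp run from -0.26 to 0.71 and those of Fabp1 from -0.65 to 0.48.

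Ribosome density is the level in the heavy over that in the light fraction. In CD liver the log2 heavy over light value was 1.77 for Lrp1, 1.29 for Lipc, 1.08 for Mttp, 0.70 for Angptl4 and 0.22 for Fabp1, but -2.09 for Lpl. As a share of heavy plus light FPKM, which is a share of normalized values and not of molecules, the heavy fraction held 77.3% for Lrp1, 71.0% for Lipc, 67.9% for Mttp, 62.0% for Angptl4, 53.8% for Fabp1 and 17.7% for Lpl. Lipc, Lrp1, Angptl4 and Mttp were past 1.5 and Lpl past 0.75, against 32.9% and 36.6% of all loci (69.5% past either limit). The Lpl value rests on 10 light and 2 heavy fragments, and its interval of 0.0229 to 1.01 just included 1. For Mttp the interval was 1.54 to 2.92, and for Angptl4 it was 0.979 to 2.76.

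In WD liver Angptl4 and Mttp exchanged places in this order. The log2 heavy over light value was 1.74 for Lrp1, 1.09 for Lipc and 0.67 for Angptl4, each close to its CD value, whereas Mttp was at 0.10 and Fabp1 at -0.91. Lpl stood at -1.24. The heavy shares were 77.0% for Lrp1, 68.1% for Lipc, 61.4% for Angptl4, 51.8% for Mttp, 34.8% for Fabp1 and 29.3% for Lpl. Here 3 of the 6 were past 1.5 and 2 (Lpl and Fabp1) past 0.75, against 31.4% and 38.5% of all loci (69.8% past either). The count interval was 1.12 to 2.24 for Angptl4, 0.841 to 1.36 for Mttp and 0.142 to 1.00 for Lpl.

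**Figure D3:**
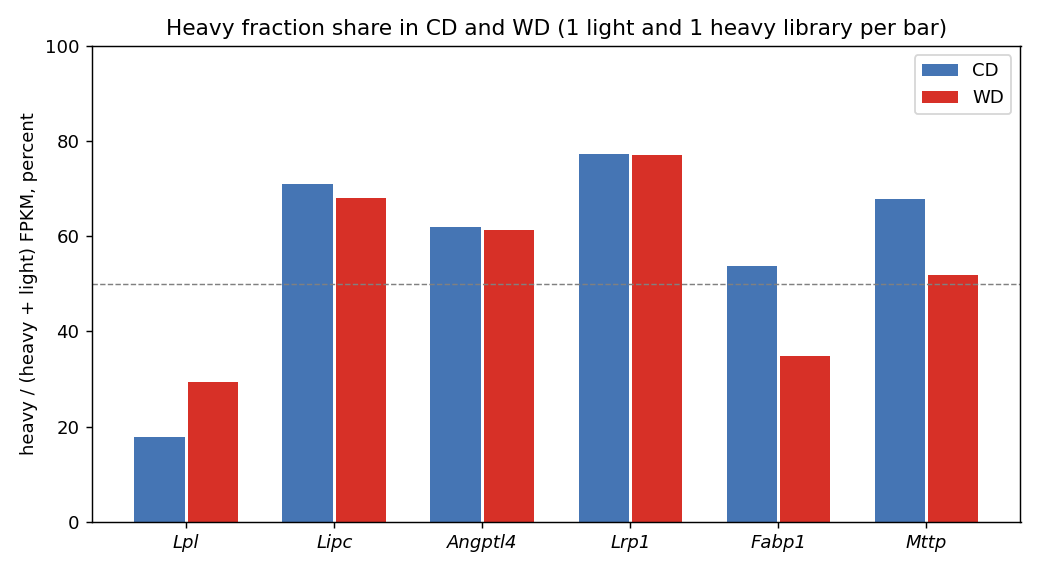
The heavy fraction's share of heavy plus light FPKM (vertical axis, percent, from 0) for 6 genes in CD (blue) and WD (red), each bar from 1 light and 1 heavy library, with a dashed line at equal shares. Lrp1, Lipc and Angptl4 have bars of nearly the same height in both diets, while Mttp (67.9% and 51.8%) and Fabp1 (53.8% and 34.8%) are lower in WD and Lpl is low in both.

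The diet difference in ribosome density was 0.85 for Lpl, -0.02 for Lrp1, -0.04 for Angptl4, -0.20 for Lipc, -0.97 for Mttp and -1.13 for Fabp1 on the log2 scale. Lpl was thus past 1.5, and Mttp and Fabp1 were past 0.75 (27.7% and 36.1% of all loci), so 3 of 6 were past either limit beside 63.9% of all loci. With the limits on CD over WD, the count was 3 as well (63.8% of all loci). The median of the 6 was -0.12, against -0.02 over all loci. For Mttp the ratio of ratios was 0.509, with a counting interval of 0.339 to 0.759, and after rescaling it was 0.640 (0.426 to 0.953). The intervals of Angptl4 (0.518 to 1.83) and Lpl (0.282 to 22.5) included 1.

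Both of the lower ribosome densities, of Mttp and of Fabp1, were formed with the WD light library. With total RNA in its place, the log2 difference of heavy over total RNA was -0.09 for Mttp and -0.27 for Fabp1, and neither passed 0.75. By that measure Lpl was at 0.70 and Angptl4 at 0.63, whereas Lipc (-0.01) and Lrp1 (-0.06) were close to 0. The share of all loci past a limit was not computed for heavy over total RNA. Rescaling to the same sum gave 0.13 for Lipc, 0.30 for Lrp1 and 0.29 for Angptl4 in ribosome density, so the sign of these 3 small values turned with the scaling, while Mttp (-0.65) and Fabp1 (-0.80) stayed below 0.

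**Figure D4:**
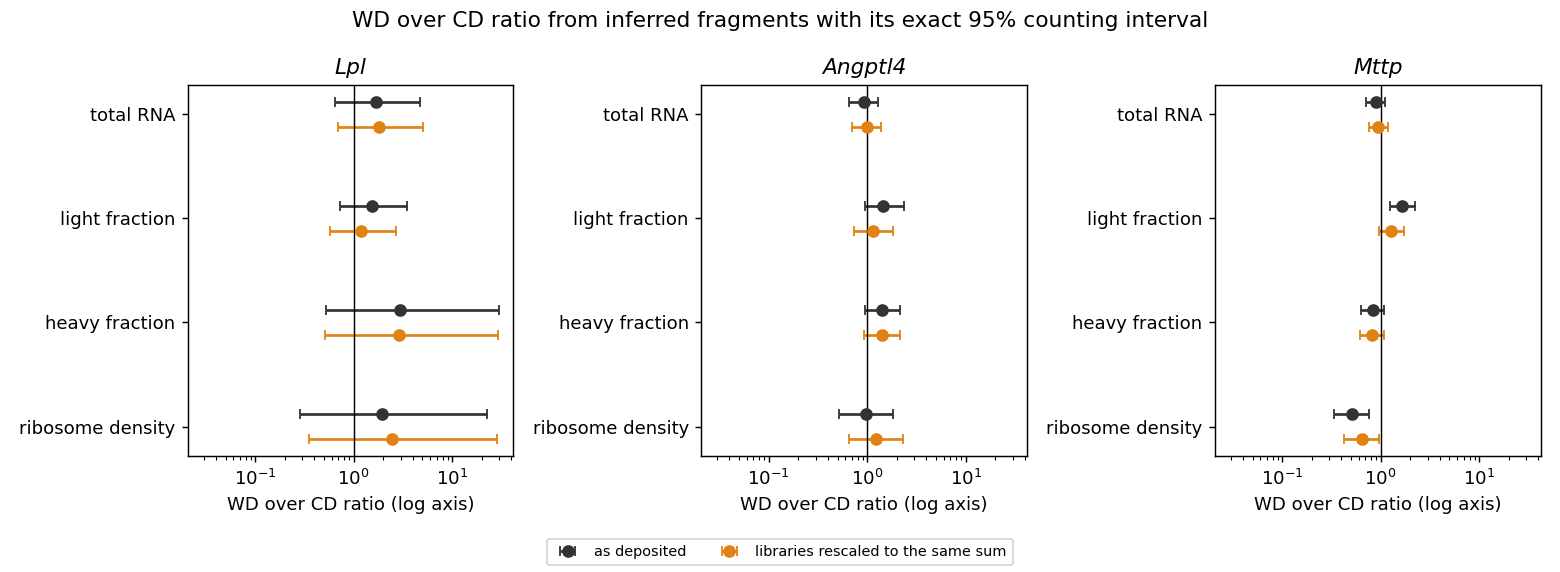
The WD over CD ratio (horizontal axis, logarithmic) of Lpl, Angptl4 and Mttp in total RNA, in each gradient fraction and in ribosome density, from inferred fragments, with bars for the exact 95% counting interval, black as deposited and orange with libraries rescaled to the same sum. The bars cross 1 throughout for Lpl and Angptl4, and for Mttp those of ribosome density (0.339 to 0.759 and 0.426 to 0.953) lie below 1.

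Over the 6 libraries, the ratio of the highest to the lowest level was 7.07 for Lpl, 3.85 for Lrp1, 2.83 for Lipc, 2.33 for Angptl4, 2.11 for Mttp and 1.88 for Fabp1. The loci whose centred log2 profile over the 6 libraries lay nearest to that of each gene were sought among 3646 loci that averaged 10 FPKM or more. They were Tmem256 and St6galnac4 for Lpl (root mean square distance 0.188 and 0.226), Igfals and Mlycd for Lipc (0.107 and 0.108), Adam9 and Serpina11 for Angptl4 (0.0682 and 0.102), and Grn and LOC297568 for Lrp1 (0.0583 and 0.115). For Mttp Tbc1d14 was nearest (0.0944), and for Fabp1 they were Dcaf6 and Acadm (0.118 and 0.130). The distances were longer for Vldlr (0.809 for Plekhj1 and 0.863 for Rpl22l1) and Sort1 (0.548 for Cyp2d5 and 0.571 for Psma2), each with at least 1 library at 0.

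Other lipases, their maturation factors and apolipoprotein cofactors were mostly within both limits in total RNA. Of 16 symbols, 13 had a mean of at least 1 FPKM, of which 0 were past 1.5 and 2 past 0.75 (17.7% and 22.7% of all loci), with a median of 0.02, as over all loci. Those with the lowest values were Lipe, hormone-sensitive lipase (-1.31), and Mgll, monoglyceride lipase (-0.45), and those with the highest were Ces1d (0.58) and Apoc1 (0.26). Lipe was at 2.75 FPKM in CD and 1.04 FPKM in WD, from 11 and 4 fragments, and its interval of 0.0883 to 1.28 included 1. In ribosome density 4 were past each limit (27.7% and 36.1% of all loci), with a median of 0.17 against -0.02. Lipe (3.21, interval of the ratio 0.895 to 173) and the lipase maturation factor Lmf1 (1.70, interval 0.829 to 14.0) were highest, and the lipoprotein lipase activators Apoa5 (-1.45, interval of the ratio 0.259 to 0.515) and Apoc2 (-1.10, 0.317 to 0.686) were lowest. Both had higher WD than CD values in the light fraction, at 121 against 45.6 FPKM for Apoa5 and 976 against 515 FPKM for Apoc2. The log2 difference of heavy over total RNA, which leaves the light libraries out, was -0.13 for Apoa5 and -0.17 for Apoc2. It was 3.15 for Lipe and 0.80 for Lmf1. Lipg, Pnpla2 and Gpihbp1, the anchor of lipoprotein lipase on capillary endothelium, were listed at 0 in all 6 libraries. Whether these transcripts are absent from the liver was not tested.

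Among the other angiopoietin-like genes, Angptl2 was at 6.81 FPKM in CD and 5.22 FPKM in WD total RNA and Angptl6 at 17.9 and 21.4 FPKM, with log2 differences of -0.38 and 0.26, neither past a limit. In the light fraction Angptl2 was at 12.6 FPKM in CD and 10.7 FPKM in WD, and in the heavy fraction at 16.4 and 9.05 FPKM. The difference in ribosome density was -0.61 for Angptl2 (interval of the ratio 0.245 to 1.71) and -0.07 for Angptl6. Angptl2 was past 0.75, as were 36.1% of all loci.

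Of 19 lipoprotein receptors and regulators, 16 could be compared, and in total RNA 3 were past 1.5 and 4 past 0.75 (17.7% and 22.7% of all loci), with a median of -0.16 against 0.02. Lrpap1, the chaperone of Lrp1, had the highest value (1.33, from 3.48 FPKM in CD and 8.93 FPKM in WD, interval of the ratio 1.23 to 5.73), followed by Mylip (0.95, interval 0.109 to 123). Among the lowest was Lrp2 (-0.95, interval 0.277 to 0.867). In ribosome density 2 were past each limit (27.7% and 36.1% of all loci), with a median of 0.00 against -0.02. Lrp4 (1.36) was among the highest, and Scarb1, the HDL receptor (-0.89), and the macrophage scavenger receptor Msr1 (-0.83, interval 0.225 to 1.30) were lowest. Heavy over total RNA, without the light libraries, gave 0.46 for Lrp4, -0.39 for Scarb1 and -0.84 for Msr1.

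Fatty acid transport proteins, acyl-CoA synthetases and the other fatty acid binding proteins gave 16 comparable genes of 21, with 1 past 1.5 and 4 past 0.75 in total RNA (17.7% and 22.7% of all loci) and a median of -0.09 against 0.02. The highest were Fabp4 (0.74, interval 0.483 to 6.50), which adipocytes and macrophages express, and Acsl4 (0.27, interval 0.977 to 1.49). The lowest were Fabp5 (-1.79, interval 0.0511 to 1.08) and the acyl-CoA binding protein Dbi (-0.70). In ribosome density 3 were past 1.5 and 7 past 0.75 (27.7% and 36.1% of all loci), with a median of -0.35 against -0.02. Fabp5 (-3.18, interval 0.00208 to 1.70) and Slc27a1 (0.87, interval 0.541 to 6.37) were among the extremes, as were Fabp2 and Fabp3, which have libraries listed at 0. Heavy over total RNA, without the light libraries, gave -0.52 for Fabp5 and 1.46 for Slc27a1.

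All 16 genes of lipoprotein assembly and secretion could be compared. In total RNA 1 was past each limit (17.7% and 22.7% of all loci), with a median of 0.12 against 0.02. Sec23a, a subunit of the COPII coat (1.13, interval 1.21 to 4.20), and Dgat1 (0.51, interval 0.527 to 4.12) were highest. Mia2, a cargo factor for large particles (-0.82, interval 0.337 to 0.931), and Sec24d (-0.31, interval 0.565 to 1.14) were lowest. In ribosome density 4 were past each limit (27.7% and 36.1% of all loci), with a median of 0.16 against -0.02. Dgat1 (1.08, interval 0.762 to 5.94) and Cideb (0.90, interval 1.26 to 2.76) stood at the upper end. Pdia3 (-1.42, interval 0.260 to 0.535) and Pltp (-0.70, interval 0.291 to 1.27) stood at the lower end. Mttp, with -0.97, lay between Pdia3 and Pltp. The log2 difference of heavy over total RNA, which leaves the light libraries out, was 0.03 for Dgat1 and -0.09 for Cideb. It was 0.06 for Pdia3 and -0.37 for Pltp.

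PPAR alpha and its targets, excluding the genes above, gave 17 comparable genes of 19 symbols. In total RNA 0 were past 1.5 and 9 past 0.75 (17.7% and 22.7% of all loci), with a median of -0.45 against 0.02. Fgf21, a hepatokine induced by fasting, was lowest (-0.99, from 55.5 FPKM in CD and 27.9 FPKM in WD, interval 0.238 to 1.01), followed by Cyp4a1, a fatty acid omega-hydroxylase (-0.98, from 403 and 204 FPKM). The highest were Acaa1a (0.30) and Plin2 (0.19). Angptl4 (-0.12) and Fabp1 (-0.38) had values closer to 0 than this median. The total RNA counts of this group are as deposited and were not recomputed after rescaling. Rescaling moved the median over all loci in total RNA from 0.02 to 0.12. In ribosome density 2 were past 1.5 and 4 past 0.75 (27.7% and 36.1% of all loci), with a median of 0.14 against -0.02. Fgf21 (1.89) and Vnn1 (0.66) were highest, and Acadm (-0.99) was among the lowest.

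**Figure D5:**
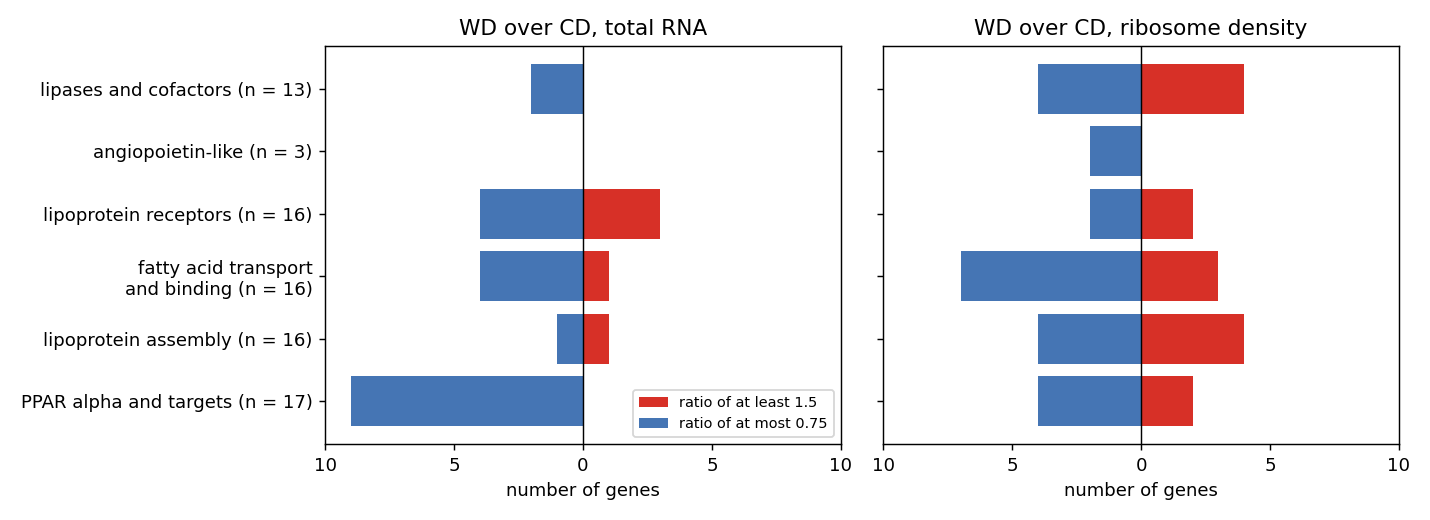
Number of genes (horizontal axis) with a WD over CD ratio of at least 1.5 (red, to the right) or at most 0.75 (blue, to the left) in total RNA and in ribosome density for 6 gene groups, with n the number compared. PPAR alpha and its targets have 9 of 17 genes on the lower side and 0 on the upper side in total RNA, with values as deposited.

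In bulk liver, fewer cells of a type and less RNA per cell cannot be told apart, and this touches Lpl first, since macrophages and adipocytes also express it. Of 10 Kupffer cell and macrophage markers, 4 were past 1.5 and 1 past 0.75 in total RNA (17.7% and 22.7% of all loci), and their summed level in total RNA was 115 FPKM in CD and 142 FPKM in WD, with 100 and 118 FPKM in the light fraction and 165 and 202 FPKM in the heavy fraction. Lpl and this sum were thus both higher in WD in each kind of RNA as deposited. Single markers were split, with 3 of 10 past 1.5 and 2 past 0.75 in the light fraction (25.9% and 26.8% of all loci). The heavy fraction also had 3 past 1.5 and 2 past 0.75 (21.7% and 25.8% of all loci). After rescaling the light fraction sum was 104 FPKM in CD and 95.8 FPKM in WD, so its direction turned there, while the total RNA (123 and 162 FPKM) and heavy (168 and 202 FPKM) sums kept theirs. The part of the marker cells in the Lpl values was not tested. Adipoq, Plin1, Lep, Retn and Plin4 were listed at 0 in all 6 libraries. The 2 adipocyte markers that were measured, Cidec and Cfd, which liver also expresses, summed to 18.7 FPKM in CD and 27.5 FPKM in WD total RNA. Their sums were 40.5 and 30.8 FPKM in the light fraction and 39.1 and 49.1 FPKM in the heavy fraction. WD was thus higher in total and heavy RNA and lower in the light fraction. Of 7 muscle markers, 6 were listed at 0 throughout. The 8 endothelial markers compared summed to 96.9 FPKM in CD and 115 FPKM in WD total RNA. Their sums were 88.9 and 97.0 FPKM in the light fraction and 96.9 and 105 FPKM in the heavy fraction. As deposited, the endothelial sum was thus also higher in WD in each kind of RNA, and it was not recomputed after rescaling.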

How the data were processed

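Liver RNA of rats on each diet was sequenced as total RNA and as light and heavy sucrose gradient fractions, 1 pooled library of 3 rats per group. The authors aligned reads to Rnor 6.0 with TopHat and deposited FPKM values per locus from Cufflinks and Cuffnorm, with lower and upper bounds, in a table normalized across the 6 libraries. The annotation is not given in the sources used here. The 10201 loci that carry a symbol and average 1 FPKM or more were compared, after adding 0.1 FPKM, and were called past a WD over CD ratio of 1.5 or 0.75. The study's methods give these limits for ribosome density and for CD over WD. They were applied here to abundance and to heavy over light as well.

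Fragment numbers were inferred as the whole numbers explained by 1 factor per library and 1 step per gene. Of 13283 loci detected in 2 or more libraries, 82.0% received such numbers, against 2.11% once a jitter of 1% was added to the values. They are estimates, tested on simulated data, and a multiple of them would give the same FPKM values. Intervals are exact (Clopper-Pearson for a ratio, conditional odds ratio for ribosome density) at 95% and compare libraries, not diets. Members and lists were chosen with earlier results of these data known. By rule, all members, the 2 highest and 2 lowest genes of each list in total RNA and in ribosome density, and the 2 nearest loci of each member are named, apart from a few whose values are not reported here. The marker genes named, the blood cell genes and the genes listed at 0 fall outside it and were chosen after their values were seen. Alternatives covered the pseudocount, the filter, scaling, centring and the limits. Tables were handled with pandas 2.3.3 and numpy 2.4.6 in Python 3.11.15, intervals were computed with scipy 1.17.1, and plots were drawn with matplotlib 3.10.9.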

Additional observations from a re-analysis of the deposited data

Results flagged for a closer look

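Mttp and Fabp1 differed between the diets in opposite directions in the light and the heavy fraction, WD being higher in the light and lower in the heavy fraction, with differences in ribosome density of -0.97 for Mttp and -1.13 for Fabp1 (log2). Whether the 2 fractions differ beyond the spread between rats was not tested, since each value comes from 1 library. The counting interval of the Mttp density ratio excluded 1, also after rescaling (0.426 to 0.953). The Mttp heavy fraction interval included 1 (0.634 to 1.09), as did the light one after rescaling (0.965 to 1.73). Fabp1 has no counting interval. Rescaled, its light fraction difference was 0.13 and its ribosome density difference was -0.80. With the light libraries left out, heavy over total RNA differed by -0.09 for Mttp and -0.27 for Fabp1 (log2).

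In the light fraction Vldlr was listed at 0.732 FPKM for WD and at 0 for CD, and the other way around in the heavy fraction. These values rest on 4 and 2 fragments, and the difference was not tested.

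The merged locus that holds Cd36, which is outside the comparisons, was at 15.9 FPKM in WD total RNA, above the 0.718 FPKM of CD total RNA. Its Cufflinks bounds in the CD library reach 7.28 FPKM and in the WD library start at 0, and the difference was not tested.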

How the results depend on the processing

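The counts of genes past a limit were 1 in total RNA, 2 in the light fraction, 2 in the heavy fraction and 3 in ribosome density, with 5 in the heavy over light ratio of each diet. With a pseudocount of 1 FPKM they were 0 in total RNA and 1 in the light fraction. With a mean of at least 10 FPKM, which removes Lpl, they were 0, 1 and 1 in total, light and heavy RNA. Without a filter on low values, which brings in Vldlr and Sort1, they were 3, 4 and 4, and 5 in ribosome density. Centring on the median of all loci gave 2 in total RNA and 1 in the light fraction. With limits of 2 and 0.5 the counts were 0 in total RNA, 0 in the light fraction, 1 in the heavy fraction, 1 in ribosome density and 3 in the heavy over light ratio in WD. A counting interval that excludes 1 could be required only of Lpl, Angptl4 and Mttp. Lipc, Lrp1 and Fabp1 have no fragment numbers and were left out, so they did not fail it. The counts were then 0 in total RNA, 1 in the light fraction and 0 in the heavy fraction. They were 1 in ribosome density and 1 in the heavy over light ratio of each diet. With that requirement on libraries rescaled to the same sum, a setting chosen after seeing the data, the counts were 0, 0, 0 and 1, and 2 in CD and 1 in WD for heavy over light. With limits of 1.5 and 0.75 on CD over WD, also chosen after seeing the data, the counts were 1, 4, 3 and 3. Among the alternative settings, the share of all loci was computed only for these limits on CD over WD. Because the other counts lack that share, a change in these genes cannot be told from a shift of all loci. Of 102 recomputed log2 values, 4 had the opposite sign, all in ribosome density and for Lipc, Lrp1 and Angptl4.

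Depth limits Lpl, Sort1 and Vldlr most, and Lipc, Lrp1 and Fabp1 have no fragment numbers. Replicates could not be left out in turn with 1 library per group. No paired analysis was possible because each group holds 1 library.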
